A study of Mus musculus with 8 samples.

Results

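Collagens were measured as 69 probes for 44 genes on 8 arrays of 1 colour, out of 39429 probes for 30139 genes. The members are the probes whose gene name in the scanner files is Col, a number, the letter a and a number, so that collectins and Colq were left out. The rule reads the gene name and no measured value. For 2 probes of Col26a1 the name was met on the Tbx18VP16 arrays only, and the other arrays give those probes an older symbol. All 69 probes were of 60 bases and had the same sequence on both array designs.

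The RNA came from GFP-positive cells sorted from kidney rudiments of mouse embryos at stage E11.5, strain NMRI, both sexes pooled. Tbx18 null embryos carried the GFP allele of Tbx18 on both chromosomes, Tbx18(GFP/GFP), and 3 pools were measured. Tbx18VP16 embryos were Tbx18(cre/+);Hprt(Tbx18VP16), and 2 pools were measured. In these the Hprt locus held a CAG-driven Tbx18VP16 transgene linked to GFP, and VP16 is a viral domain that activates transcription. Control embryos were Tbx18(GFP/+), with 3 pools, so every group had at least 1 altered Tbx18 allele. GFP came from the Tbx18 locus in null and control cells but from the transgene in Tbx18VP16 cells, so the sort did not rest on the same reporter. Each pool held about 100000 cells from several rounds of sorting, per the labels.

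Collagens are chains with long stretches of glycine at a fixed spacing, and 3 chains wind into a triple helix. Fibril-forming types make the rope-like fibres of mesenchyme, and FACIT types sit on their surface. Type IV forms the sheet of basement membranes, type VI forms beaded filaments, type VIII forms short-chain networks, and transmembrane types stay at the cell surface and can be shed. In the embryonic kidney, type I and III fibres lie in mesenchyme and stroma, while type IV surrounds the ureteric bud, and Tbx18, a T-box factor, is expressed in mesenchyme around the future ureter.

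A level below is log2 of the background-corrected signal minus the array's 75th percentile, so that 0 is the 75th percentile of the array. A change is the difference of 2 such means in log2 units. Levels of different probes are not compared, because probes differ in how brightly they bind. A gene was tested through its brightest probe if this was well above background on at least 2 of 8 arrays. That left 36 of the 44 collagens, 32 of them well above background on all 8 arrays, and 20593 genes in all. The other 8 were well above background on no array. They were Col4a3 (basement membrane), Col6a4, Col6a5 and Col6a6 (beaded filament), Col10a1 (short-chain network), Col15a1 (multiplexin), Col19a1 (FACIT) and Col28a1. A bulk level cannot tell fewer cells of a type from less RNA per cell.

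Across the arrays, 60.1% to 66.0% of probes were well above background. Tbx18 had levels of -2.40, -1.34 and -2.35 in null pools, 1.34 and 1.06 in Tbx18VP16 pools and -0.02, 1.20 and 1.04 in control pools. The null pools were all lower than the others, and whether the probe lies within the altered part of the locus was not tested. Null and control arrays were of 1 design and Tbx18VP16 arrays of another, on a slide of their own, so that design and slide cannot be told apart from the Tbx18VP16 genotype. Null pool 3 stood apart in markers of other cells. Its erythroid markers (8 genes) summed to 380 times the 75th percentile, against 3.96 and 19.1 in null pools 1 and 2, 2.33 and 6.55 in Tbx18VP16 pools and 4.70 to 19.8 in control pools. Its endothelial markers (10 genes) summed to 17.4, against 4.32 to 4.93 in the other null pools, 2.02 and 2.45 in Tbx18VP16 pools and 3.58 to 4.40 in control pools.

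**Figure D1:**
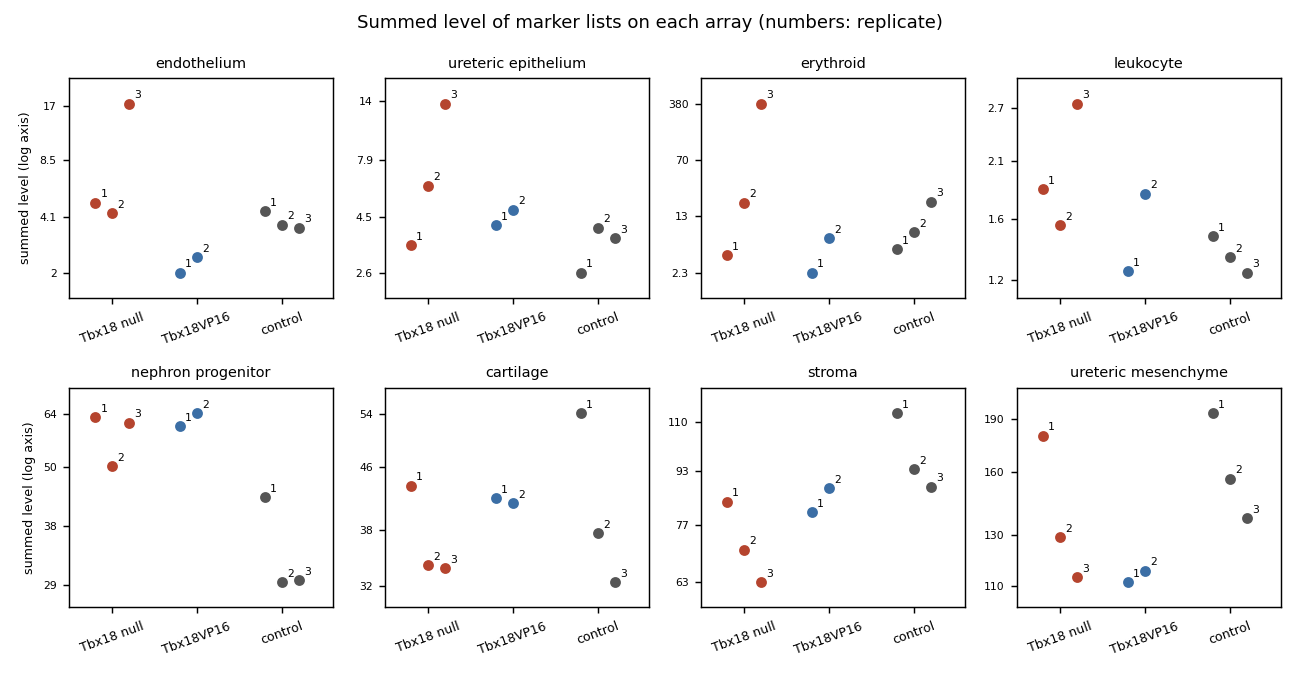
Summed level of 8 marker lists on each array, in multiples of the array's 75th percentile on a log axis. Each point is 1 array, numbered by replicate. Null array 3 has the highest erythroid (380), endothelial (17.4) and ureteric epithelial (13.7) sums.

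3 genes carried the calls of this family, and their sequences come first. Col25a1 encodes a transmembrane collagen known from neurons and from the innervation of muscle, and Col8a1 and Col8a2 encode the 2 chains of type VIII. Of 39429 probes, 8 held 6 codons of the form GGN, which encode glycine, spaced every 9 bases with no stop codon in frame. That spacing is the triple-helix repeat, and 2 of the 8 probes were collagens. The Col25a1 one, at chr3:130270497-130270556 (mm9, plus strand), is shown with these codons in capitals, since it places a probe of the gene in the helix-coding part.

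Col25a1 probe: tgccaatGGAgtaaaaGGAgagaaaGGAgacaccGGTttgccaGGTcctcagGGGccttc

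RefSeq promoters of GRCm38.p6 matched 35 of the 44 genes. The 250 bases before the start of the 3 genes are shown with GGGCGG, read on both strands, in capitals. The windows are chr3:130180595-130180844 (plus strand) for Col25a1, chr16:57754738-57754987 (minus strand) for Col8a1 and chr4:126286544-126286793 (plus strand) for Col8a2.

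Col25a1 promoter: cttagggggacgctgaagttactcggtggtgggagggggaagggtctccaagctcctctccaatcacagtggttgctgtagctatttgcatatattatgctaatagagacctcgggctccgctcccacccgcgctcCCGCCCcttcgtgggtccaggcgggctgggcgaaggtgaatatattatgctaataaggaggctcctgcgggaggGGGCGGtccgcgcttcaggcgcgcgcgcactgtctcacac
Col8a1 promoter: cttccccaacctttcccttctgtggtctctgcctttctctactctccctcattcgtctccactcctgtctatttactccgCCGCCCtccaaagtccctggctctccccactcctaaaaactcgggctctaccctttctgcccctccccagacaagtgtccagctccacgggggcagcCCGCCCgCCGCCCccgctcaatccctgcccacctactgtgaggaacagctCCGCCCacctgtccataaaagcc
Col8a2 promoter: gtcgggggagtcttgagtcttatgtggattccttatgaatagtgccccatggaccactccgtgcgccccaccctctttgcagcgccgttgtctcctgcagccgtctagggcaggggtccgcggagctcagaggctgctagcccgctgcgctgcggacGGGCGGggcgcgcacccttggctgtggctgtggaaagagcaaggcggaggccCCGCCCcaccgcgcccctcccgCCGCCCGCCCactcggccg

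GGGCGG was in 22 of 38 collagen promoters (57.9%), against 32.7% of all 32851 promoters of this length, and in all 3 of these. The T-box letters GGTGTG, on both strands, were in 7 of 38 (18.4%) against 16.3%, and in none of the 3. TCACACCT was in 0 of 38 against 1.12%. TATAAA was in 5 of 38 (13.2%) against 12.4%, among them Col3a1 and Col10a1, and in none of the 3. These matches describe letters only.

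In Tbx18 null cells the collagens lay lower than in control cells as a family. Col8a1, a chain of type VIII, was the largest exception, and most type IV chains and Col18a1 also lay higher. The median change of the 36 genes was -0.46, against 0.01 for all 20593 genes. 26 of the 36 (72.2%) were lower, against 48.1% of all genes. With limma and Benjamini-Hochberg adjustment, 0 of 36 collagens and 0 of 20593 genes (percent called 0) passed an adjusted p of 0.05. At an unadjusted p under 0.05, 2 collagens were higher and 6 lower, where the shares of all genes were 3.14% and 2.07%. Arrays of the groups did not overlap for 5 collagens that were higher and 7 that were lower in null, which is 13.9% and 19.4% of 36, against 4.48% and 3.55% of all genes.

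Replicate numbers paired the null and control pools. With the number as a block, limma called 84 genes (0.408% of 20593), among them 2 collagens. Col8a1 was the 1 called higher and Col25a1 the 1 called lower, where 0.214% of all genes were called higher and 0.194% lower. Within pairs 1, 2 and 3, the median collagen difference was -0.13, -0.39 and -0.88, against 0.04, 0.00 and 0.01 for all genes. 19 collagens were lower in all 3 pairs, where 17.1% of all genes were, and 6 were higher in all 3 pairs, where 19.3% were. Without null pool 3, the median change was -0.35 and 26 of 36 were again lower.

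**Figure D2:**
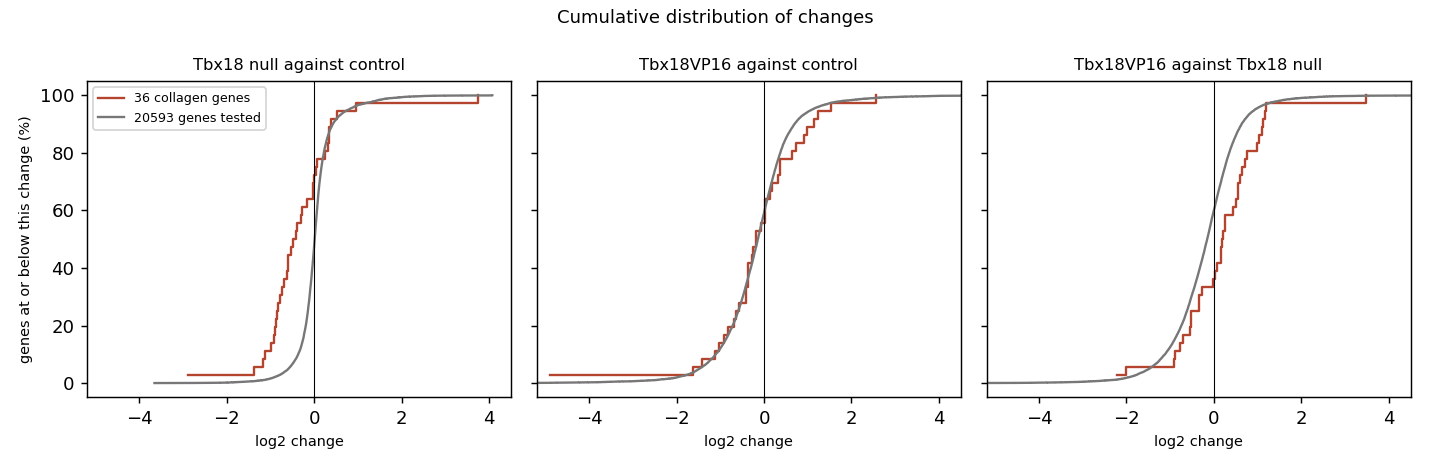
Cumulative percent of genes at or below each log2 change, for the 36 collagens and all 20593 genes tested, in 3 comparisons. At the median, the collagen line lies left of all genes in null against control (medians -0.46 and 0.01), close to it in Tbx18VP16 against control (-0.18 and -0.14) and right of it in Tbx18VP16 against null (0.20 and -0.15).

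Col8a1 showed the largest difference of any collagen in null cells. Its levels were -2.98, -1.88 and -2.40 in null pools, -4.61 and -4.68 in Tbx18VP16 pools and -6.85, -6.01 and -5.66 in control pools. The 3 groups did not overlap, null was highest and control lowest, and control pool 1 was not well above background. In null pools it averaged -2.42 ± 0.55, against -6.17 ± 0.61 in control pools (SD, n = 3 each), a change of 3.75 (SE 0.41), or 13.5-fold. The adjusted p was 0.078 in limma without the block and 0.028 with it, and the difference was 3.27 to 4.13 in the 3 pairs. With normexp background correction the change was 1.92. Leaving out pair 1 or pair 2 from the blocked fit left no gene called, and without pair 3 the fit called 425 genes, with 1 collagen higher and 2 lower.

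Col25a1 lay on the other side. Its brightest probe had levels of -2.08, -3.48 and -3.40 in null pools, -4.71 and -5.27 in Tbx18VP16 pools and 0.37, -0.59 and -0.07 in control pools. Control pools were the highest of the 3 groups, with no overlap. The change in null was -2.89 (SE 0.45), a level 7.41-fold lower, with an adjusted p of 0.131 in limma without the block and 0.040 with it. The other 3 probes of the gene were also lower in null, by -1.93, -2.41 and -2.87. The brightest probe lies at chr3:129885684-129885743 (mm9), which is 384813 bases before the probe shown above, and the remaining 2 lie further downstream.

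Fibril-forming collagens, which build the fibres of mesenchyme, were lower in null for 10 of 11 genes, with a median change of -0.53 and 0 called. Col1a2, the second chain of type I, had levels of 5.72, 4.69 and 4.54 in null pools, against 6.30, 5.88 and 6.31 in control pools. No null pool reached the lowest control pool, and the change was -1.18 (SE 0.36, limma adjusted p 0.587). Col3a1, the single chain of type III, had 5.30, 5.09 and 4.76 in null pools and 6.05, 5.99 and 5.75 in control pools, a change of -0.88 (SE 0.25, limma adjusted p 0.472). Col24a1, a minor fibrillar chain, had -2.72, -2.99 and -2.71 in null pools and -1.44, -1.79 and -1.07 in control pools. Its change of -1.37 (SE 0.27) had the smallest adjusted p of the class, 0.215, and 0.058 with the block. Col1a1, the first chain of type I, had a change of -0.59 and was the fourth whose groups did not overlap. The single gene on the other side was Col5a3, a chain of type V, at 0.07.

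FACIT collagens, which decorate fibrils, were lower in null for 7 of 8 genes (median -0.64, 0 called). Col12a1, which binds type I fibrils, had the largest difference, -0.998 (SE 0.66), with levels of -3.52, -1.86 and -1.89 in null pools and -2.66, -0.61 and -1.01 in control pools. The groups overlapped. Col9a1, at 0.00, is counted as lower and was level with control. Col20a1 was the exception at 0.34, and its null pools were all higher than control pools.

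The 3 tested chains of type VI, which form one trimer, were all lower in null: Col6a1 by -0.78, Col6a2 by -0.49 and Col6a3 by -0.90. The null pools of Col6a3 had -1.42, -1.38 and -0.75, against -0.61, -0.72 and 0.49 in control pools. For Col6a1 and Col6a2 the groups overlapped, and none of the 3 passed the adjusted test.

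Type IV chains of the basement membrane were higher in null for 4 of 5 genes (median 0.35, 0 called). Col4a1 had 2.16, 2.22 and 2.32 in null pools, against 2.03, 2.05 and 1.57 in control pools, a change of 0.35 (SE 0.24). The null pools were all higher. Col4a6 had -0.99, -1.37 and -1.19 in null pools and -1.62, -1.82 and -1.66 in control pools, a change of 0.52 (SE 0.23) with no overlap. The second Col4a6 probe did not share this difference, with a change of 0.04 (SE 0.29) and overlap. Col4a2 and Col4a5 had changes of 0.39 and 0.32 with overlap, and Col4a4 had -0.31. Col18a1, whose cleaved end is endostatin and which is the 1 tested multiplexin of basement membranes, had 1.85, 0.99 and 1.74 in null pools and 0.97, 0.16 and 0.58 in control pools. Its change was 0.96 (SE 0.34, limma adjusted p 0.751, and 0.081 with the block), and its second probe gave 0.99.

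Endothelial and ureteric epithelial markers, of cells that also make type IV, mostly had higher means in null too. 9 of 9 tested endothelial genes (median 1.29) and 11 of 12 epithelial genes (median 1.51) were higher, 0 of them called, and their part in the type IV and Col18a1 values was not tested. Without null pool 3, in which both sums were highest, the changes of Col4a1, Col4a2, Col4a6 and Col18a1 were 0.30, 0.31, 0.52 and 0.85, while those of Col4a5 and Col4a4 were 0.04 and -0.05. Stromal markers summed to 63.1 to 83.4 in null pools and 88.0 to 114 in control pools, with no overlap. The list was divided, with 7 of 9 genes lower and 2 higher in null (median -0.48, 0 called, and 1 called lower with the block). Arrays of the groups did not overlap for 4 of the lower genes and for the 2 higher ones, against 3.55% and 4.48% of all genes. Nephron progenitor markers lay the other way, at 50.2 to 63.1 in null pools and 29.4 to 43.5 in control pools, again with no overlap. 9 of 10 of these genes were higher in null (median 1.63, 0 called, and Meox1 called with the block). The part of both lists in the collagen values was not tested.

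**Figure D3:**
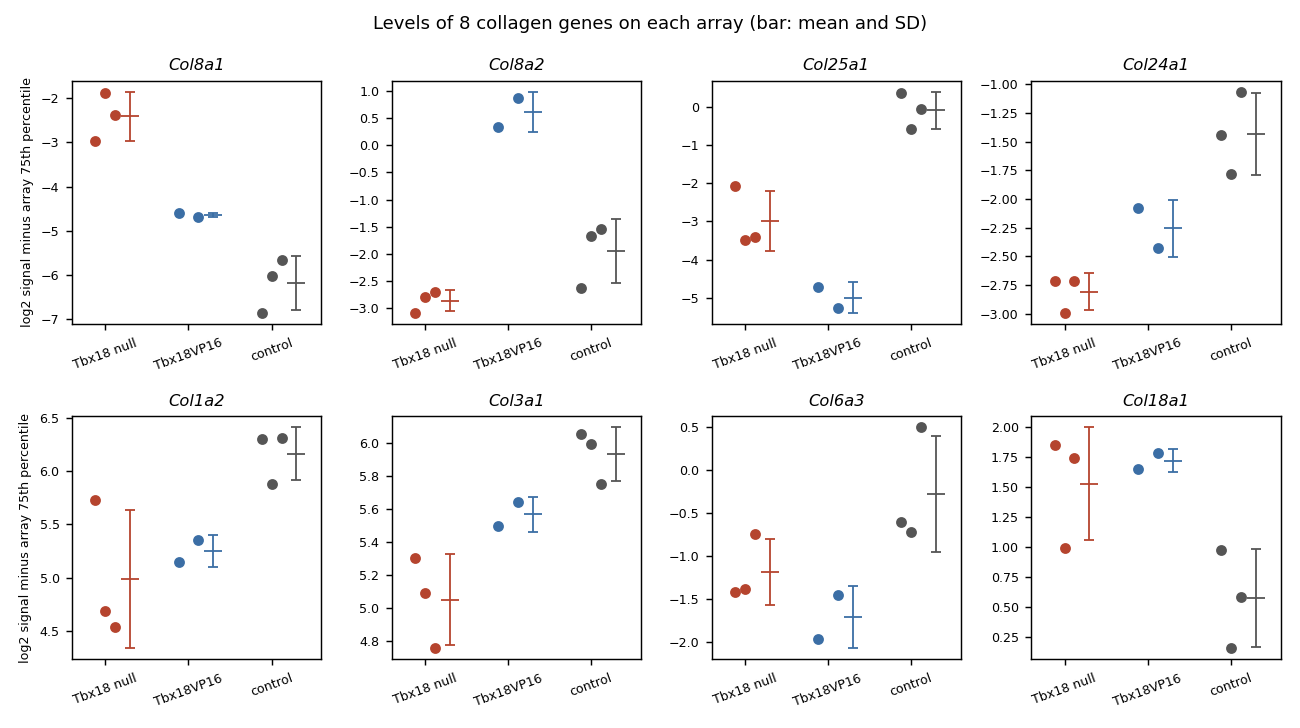
Level of 8 collagens on each array (points) with the mean and SD of each group (bars), as log2 signal minus the array's 75th percentile. Col8a1 is highest in null (-2.42) and Col8a2 in Tbx18VP16 (0.61). Col25a1, Col24a1, Col1a2, Col3a1 and Col6a3 are highest in control, and Col18a1 is lowest there.

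In Tbx18VP16 cells against control cells, the collagens as a family lay close to the other genes, and single chains stood out. The median change was -0.18, against -0.14 for all genes, and 20 of 36 (55.6%) were lower, against 59.2%. Scaling moved both medians together: after quantile normalisation they were -0.03 and -0.02. Limma with Benjamini-Hochberg adjustment called 1 collagen higher and 1 lower, where 2.03% and 3.27% of all genes were called (5.31% in all). Groups did not overlap for 7 collagens that were higher and 15 that were lower (19.4% and 41.7%), against 17.4% and 30.3% of all genes.

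Sums of marker lists separated these groups too. Nephron progenitor markers summed to 60.5 and 64.3 in Tbx18VP16 pools and 29.4 to 43.5 in control pools, and Wt1 and Meox1 were among the genes called higher. Stromal markers summed to 80.4 and 87.5 in Tbx18VP16 pools and 88.0 to 114 in control pools, with 2 genes called higher and 2 lower. Ureteric mesenchyme markers summed to 112 and 116 in Tbx18VP16 pools and 137 to 194 in control pools, with 1 called higher. None of the 3 sums overlapped between the groups, but a sum rests mostly on its brightest probes. Gene by gene, 9 of 10 nephron progenitor genes were higher (median 0.93). Of 9 stromal genes, 4 were higher and 5 lower (median -0.09), and of 10 ureteric mesenchyme genes, 5 were higher and 5 lower (median 0.05). The part of these lists in the collagen values was not tested.

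Col8a2, the second chain of type VIII, was the 1 collagen called higher. Its levels were -3.10, -2.80 and -2.71 in null pools, 0.35 and 0.88 in Tbx18VP16 pools and -2.64, -1.67 and -1.54 in control pools. Both Tbx18VP16 pools were above all others, and all null pools were below all control pools. The change was 2.56 (SE 0.37, limma adjusted p 0.010), or 5.91-fold, against control, and it was -0.92 (SE 0.34, adjusted p 0.824) in null against control. Without Tbx18VP16 replicate 1 or 2 the adjusted p against control was 0.078 or 0.151. This probe lies at chr4:125991441-125991500 (mm9). A second, dimmer Col8a2 probe at chr4:125989478-125989537 did not share the difference. It had -5.52, -5.85 and -6.34 in null pools, -5.49 and -5.83 in Tbx18VP16 pools and -5.82, -5.62 and -5.97 in control pools, a change of 0.15 (SE 0.29). It was well above background on 2 of 3 null, 1 of 2 Tbx18VP16 and 2 of 3 control arrays.

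Col25a1 fell in Tbx18VP16 cells by 4.90 on the log2 scale (SE 0.48, limma adjusted p 0.002), a level 29.8-fold lower than in control cells on its brightest probe. With normexp background correction it fell by 3.85, and without Tbx18VP16 replicate 2 the adjusted p was 0.053. The probe shown above had -5.48 and -5.54 in Tbx18VP16 pools and -3.01, -2.48 and -3.33 in control pools, a change of -2.57. Another probe had a change of -2.29, and the fourth, well above background on neither Tbx18VP16 array, was at least 4.08-fold lower. All 4 probes thus put Tbx18VP16 below control, by sizes that differed between probes.

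Col8a1 was 1.53 higher in Tbx18VP16 than in control (SE 0.42), with no overlap and an adjusted p of 0.079 in limma. With normexp background correction the change was 0.20 (adjusted p 0.641). Col18a1 was 1.15 higher (SE 0.34, adjusted p 0.100), with 1.65 and 1.78 in Tbx18VP16 pools against 0.97, 0.16 and 0.58 in control pools, and 0.90 on its second probe. The null and Tbx18VP16 pools are set against the same 3 control pools for both genes.

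Fibril-forming genes were divided in Tbx18VP16, with 6 of 11 higher and 5 lower (median 0.01, 0 called). Col5a3 had -2.44 and -1.93 in Tbx18VP16 pools and -2.89, -3.80 and -3.57 in control pools, a change of 1.24 (SE 0.44, limma adjusted p 0.150). Col11a1, a chain of type XI of cartilage and fine fibrils, had a change of 0.92 with no overlap. Col1a2 and Col24a1 were lower, by -0.91 and -0.82, again with no overlap, while Col1a1 had 0.01. Col1a1 and Col1a2 encode the 2 chains of one molecule, and whether their changes differ was not tested.

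Type VI chains were lower without overlap for all 3 tested genes, where 30.3% of all genes were lower without overlap. The changes were -0.69 for Col6a1, -1.04 for Col6a2 and -1.43 for Col6a3, and 0 were called. Col6a3 had -1.96 and -1.45 in Tbx18VP16 pools and -0.61, -0.72 and 0.49 in control pools (limma adjusted p 0.093). Type IV chains were lower for 4 of 5 genes (median -0.37, 0 called), with Col4a1 at 1.44 and 1.19 in Tbx18VP16 pools against 2.03, 2.05 and 1.57 in control pools. Col4a4 had -4.47 and -4.40 in Tbx18VP16 pools and -3.17, -3.84 and -4.36 in control pools. Its difference was the largest of these, -0.64 (SE 0.43). Its second probe, well above background on neither Tbx18VP16 array, was at least 2.52-fold lower. With every probe tested alone, that probe had a limma adjusted p of 0.019. Endothelial markers were lower for 8 of 9 genes (median -0.51, 1 called lower, Kdr), and their part in the type IV values was not tested.

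Among FACIT genes 4 of 8 were higher in Tbx18VP16 and 4 lower (median 0.00, 0 called). Col9a3, a chain of cartilage type IX, had -6.03, -5.67 and -6.48 in null pools, -7.09 and -6.81 in Tbx18VP16 pools and -5.98, -5.30 and -4.71 in control pools. It was well above background on neither Tbx18VP16 array, 1 of 3 null and 2 of 3 control arrays, and was at least 1.96-fold lower in Tbx18VP16 than in control (limma adjusted p 0.058). Col9a1, another chain of type IX, was higher by 0.64 with no overlap, but its second probe gave -0.94. Cartilage markers summed to 41.2 and 41.8 in Tbx18VP16 pools and 32.4 to 54.2 in control pools, and their Cnmd and Epyc were well above background on no array. Of the remaining transmembrane genes, Col23a1 was lower by -1.13 (SE 0.39) with no overlap, Col17a1 of hemidesmosomes was lower by -0.42 and Col13a1 was higher by 0.99, both with overlap. Col7a1, which anchors skin epithelium, and Col26a1 had -0.07 and 0.01.

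**Figure D4:**
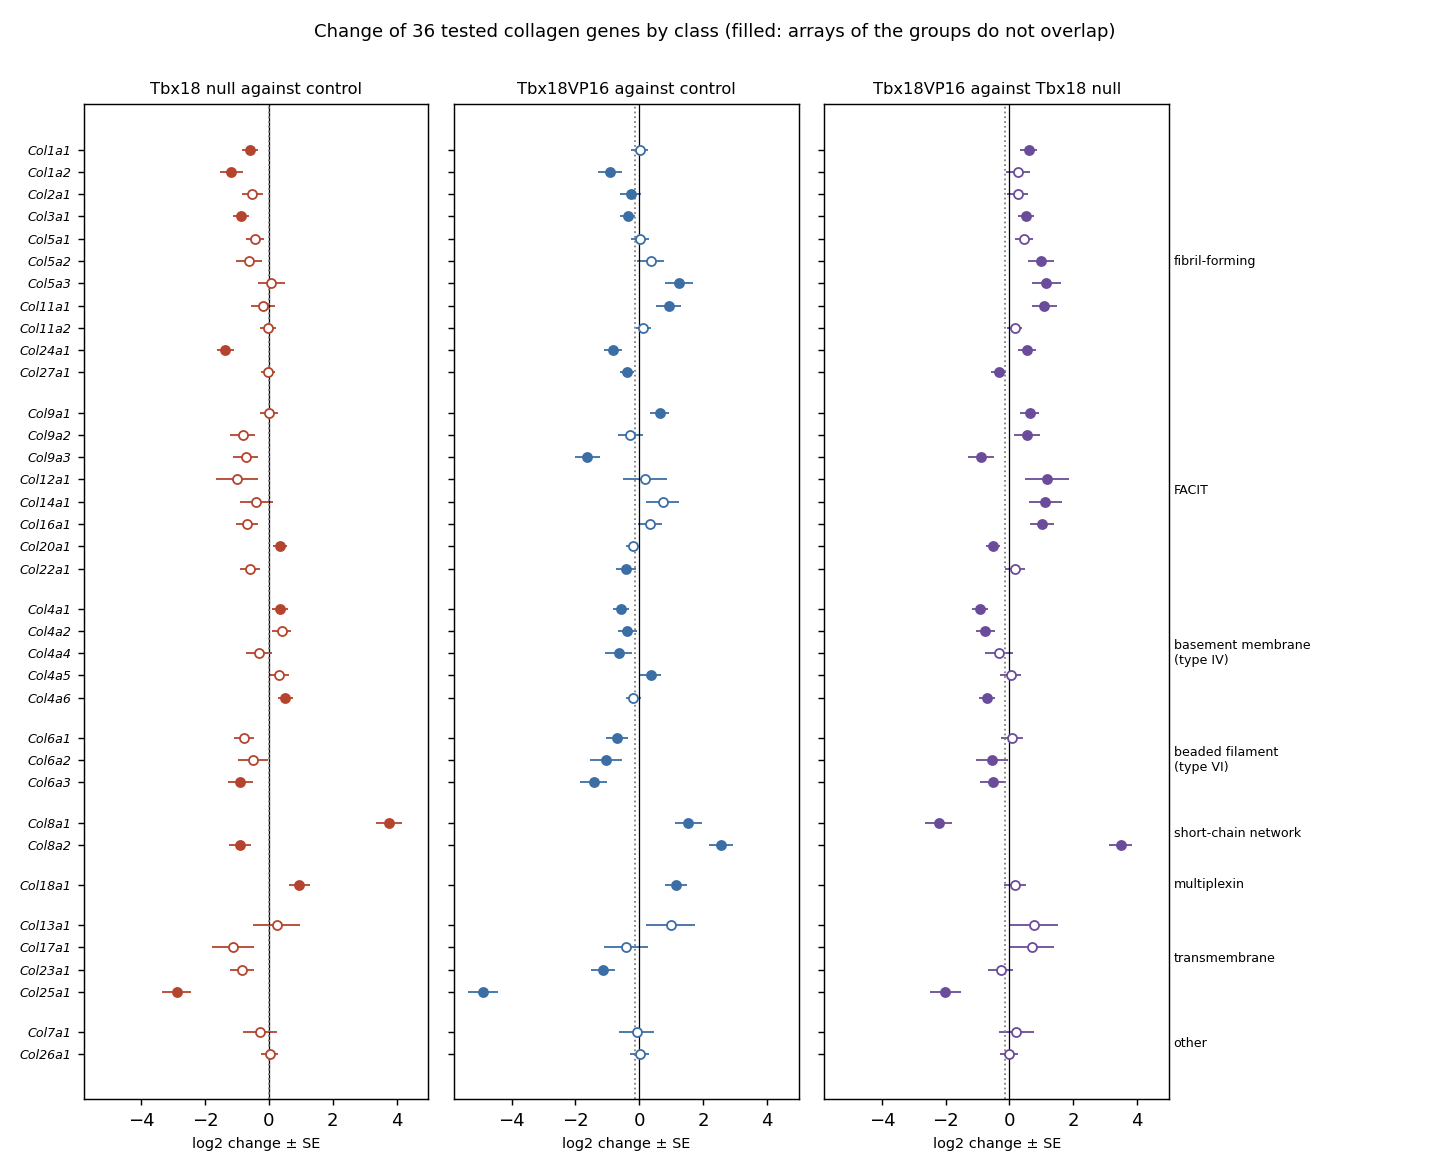
Log2 change with SE of the 36 tested collagens by class in the 3 comparisons, with filled points where arrays of the groups did not overlap and a dotted line at the median of all genes. Fibril-forming and FACIT genes lie mostly left of 0 in null against control (10 of 11 and 7 of 8) and mostly right of it in Tbx18VP16 against null (10 of 11 and 6 of 8).

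Tbx18VP16 against null set the 2 altered states side by side. The median collagen change was 0.20, against -0.15 for all genes, and 13 of 36 (36.1%) were lower, against 60.0% of all genes. Limma called 1 collagen higher, Col8a2, and 1 lower, Col8a1, where 1.17% and 2.5% of all genes were called (3.67% in all). Groups did not overlap for 12 collagens that were higher and 10 that were lower (33.3% and 27.8%), against 16.2% and 31.9% of all genes.

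The chains of type VIII thus parted on their brightest probes. Col8a2 was 3.48 higher in Tbx18VP16 than in null (SE 0.37, limma adjusted p 0.006), or 11.2-fold. The second, dimmer Col8a2 probe did not share this, with a change of 0.25 (SE 0.30) and overlap. Col8a1 was 2.22 lower on the log2 scale (change -2.22, SE 0.42, limma adjusted p 0.034), or 4.67-fold. The Col8a1 call held in 10 of 17 alternatives. It was lost after quantile normalisation (adjusted p 0.063), with the authors' values (0.055), without control replicate 2 (0.064), without null replicate 2 (0.093) or 3 (0.067) and without Tbx18VP16 replicate 1 (0.236) or 2 (0.299). The Col8a2 call was lost without Tbx18VP16 replicate 1 (0.063) or 2 (0.120). Col25a1 had a change of -2.01 on its brightest probe (SE 0.48, limma adjusted p 0.061). The other probes had changes of -0.65, -0.05 and 0.57, the last of them higher in Tbx18VP16. Arrays of the 2 groups did not overlap on 2 of the 4 probes.

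10 of 11 fibril-forming genes were higher in Tbx18VP16 than in null (median 0.52, 0 called), led by Col5a3 at 1.16 and Col11a1 at 1.10, and Col27a1 was the exception at -0.34. Col5a3 had -2.44 and -1.93 in Tbx18VP16 pools and -2.81, -4.12 and -3.12 in null pools, with no overlap. 6 of 8 FACIT genes were higher (median 0.60, 0 called). Col14a1 had -1.85 and -1.87 in Tbx18VP16 pools, against -3.07, -3.16 and -2.75 in null pools, a change of 1.13, but its second probe gave -0.29. Col16a1 had 1.02 and 0.69 on its 2 probes, and Col12a1 had 1.18, with -1.17 and -1.31 in Tbx18VP16 pools against -3.52, -1.86 and -1.89 in null pools. Of type VI, Col6a2 had the largest difference, -0.55. Type IV went the other way, with 4 of 5 lower (median -0.70, 0 called), led by Col4a1 at -0.92 (SE 0.24, limma adjusted p 0.078). The second Col4a4 probe was at least 1.86-fold lower (limma adjusted p 0.046 with every probe tested alone). Endothelial markers were lower for 9 of 9 genes in the same comparison (median -1.79, Kdr called), and their part was not tested.

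**Figure D5:**
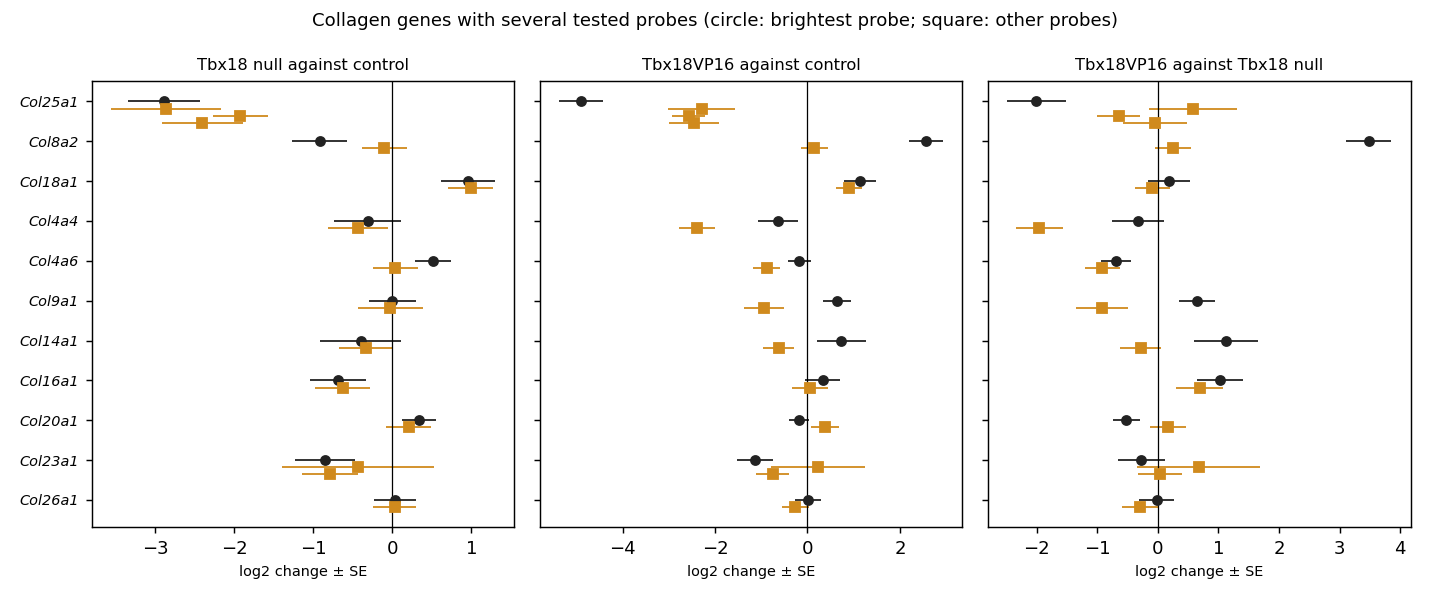
Log2 change with SE of every tested probe for the 11 collagens with several, in the 3 comparisons. Circles are the brightest probe of a gene and squares the others. In null against control all 14 squares have the sign of their circle, while in Tbx18VP16 against control 9 of 14 do.

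Agreement between probes of one gene differed between the comparisons. In null against control, where both groups were on 1 array design, all 14 further probes of 11 collagens had the sign of the brightest probe and lay within 1 log2 unit of it. In Tbx18VP16 against control, across the designs, 9 of 14 had the same sign and 6 lay within 1 unit. In Tbx18VP16 against null, 7 of 14 had the same sign and 7 lay within 1 unit. Over 6267 further probes of all genes, 70.8%, 63.8% and 64.5% had the same sign in the 3 comparisons, and 97.9%, 85.1% and 86.3% lay within 1 unit. Signs were opposite between probes of Col9a1, Col14a1, Col20a1, Col23a1 and Col26a1 against control, and of Col9a1, Col14a1, Col18a1, Col20a1, Col23a1 and Col25a1 against null.

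Enzymes and partners of collagen were described from 4 lists. Of all genes, 48.1% were lower in null and 59.2% in Tbx18VP16 than in control, and limma called 0% and 5.31%. Each list had 1 gene called in Tbx18VP16 against control, among 11 to 18 tested, and this is not read as a result about a list. Of 18 genes for chain hydroxylation, glycosylation and folding, 16 were lower in null (median -0.21) and 15 in Tbx18VP16 (median -0.31) than in control. P4ha3, a prolyl hydroxylase subunit, was the 1 called, lower in Tbx18VP16 (-2.36 and -2.39, against -1.41, -0.60 and -1.12 in control pools, change -1.34, limma adjusted p 0.047). Plod2, which hydroxylates lysines for crosslinks, was 0.85 higher with no overlap (adjusted p 0.191).

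Of 11 tested genes for procollagen export and processing, 10 were lower in null than in control (median -0.32, 0 called). Pcolce, the enhancer of C-propeptide removal, averaged 3.56 in null pools and 4.63 in control pools, which overlapped. Tll1, a protease of the same step, was called higher in Tbx18VP16, with 0.25 and -0.40 against -2.54, -3.35 and -4.49 in control pools (change 3.39, limma adjusted p 0.014). In null pools it had -1.28, -1.71 and -1.83, also above all control pools.

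Of 12 tested genes for crosslinking and fibril assembly, 9 were lower in null (median -0.29) and 10 in Tbx18VP16 (median -0.37) than in control. Loxl1, a lysyl oxidase of elastic fibres, was called higher in Tbx18VP16, with 1.96 and 2.47 against -0.34, -0.02 and 0.11 in control pools (change 2.30, limma adjusted p 0.005). Postn, which links collagen to lysyl oxidase activation, had -4.81, -3.30 and -2.43 in null pools and -2.13, -0.80 and 0.55 in control pools. Its change of -2.72 had an adjusted p of 0.533 in limma, and 0.028 with the block.

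Of 11 collagen receptors, 7 were higher in null (median 0.03, 0 called) and 8 in Tbx18VP16 (median 0.25) than in control. Ddr2, the discoidin receptor of fibrillar collagen, had -0.23, -0.88 and 0.02 in null pools and 1.01, 0.44 and 0.89 in control pools, a change of -1.15 (limma adjusted p 0.452, and 0.073 with the block). Gp6, the platelet collagen receptor, was well above background on 2 Tbx18VP16 arrays, 1 null array and no control array. It was at least 4.43-fold higher in Tbx18VP16 than in control (limma adjusted p 0.006). Because Gp6 passed the filter only through the Tbx18VP16 arrays, this call is not read as support.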

How the data were processed

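RNA of 8 pools was amplified from 20 ng of total RNA, or 10 ng for replicate 3 of null and control, and hybridised to Agilent arrays of 1 colour, per the labels' protocols. The scanner files hold spot intensity values already corrected for background by Agilent Feature Extraction 10.7.3.1, per the file headers. The authors' deposited table holds intensity on a linear scale whose 8 columns have the same sorted values and a lowest value of 10, so it was quantile-normalised with a floor. Which software made it is not known from the labels or headers, and log2 of it served as an alternative.

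After removal of control and outlier spots, the remaining spots for each probe were averaged. The array's 75th percentile over the 39429 probes found on both designs was subtracted on the log2 scale. No spot was saturated. Probes were named through RefSeq tables of GRCm38.p6 (27502 by accession, 3549 by symbol, 404 by synonym, 7974 by the name in the files). Coordinates of probes are those of the files (mm9), and those of promoters are of GRCm38.p6.

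Null and control were compared on 6 arrays, and Tbx18VP16 in a fit of 3 group means on 8 arrays, with limma 3.58.1 in R 4.3.3 (lmFit, eBayes), two-sided, with Benjamini-Hochberg adjustment over 20593 genes and a threshold of 0.05. Each gene stood for its probe of highest mean level. Where a probe was not detected above background in any array of 1 group, the fold is a lower bound. It divides the bright group's mean by a dim mean in which each array takes its detection limit, or the probe's signal if larger; the detection limit is the weakest signal among probes well above background. Deviations from group means correlated at 0.794, 0.680 and 0.403 between null and control pools of the same number, so a fit with the number as a block stands beside that comparison. In simulated arrays that held 50 changed genes per fold, null against control without the block recovered 1, 40, 48 and 50 at 2, 4, 8 and 16-fold, and with the block 28, 49, 50 and 49. The simulated fit also called 4 unchanged genes without the block and 17 with it.

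Members, gene lists and classes were chosen with earlier results of these data known. Given in full were collagens called in any comparison and, per comparison, the 6 with the largest change and no overlap; beyond these, the largest change of each class. From each pathway or marker list up to 4 genes of smallest p were eligible. A marker gene is not reported here. The arrays' number limits the precision. Whether pools of a group came from separate litters is not stated, so p-values measure the spread between pools. Alternatives were other scaling, background correction, filters, every probe tested alone, replicates left out, replicate and slide blocks, and other sets of arrays.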

Additional observations from a re-analysis of the deposited data

How the results depend on the processing

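Each count and median was recomputed under 17 alternatives per comparison. In null against control, 0 collagens were called, but 1 with the strict filter and 2 with the replicate block or with all 8 arrays in the fit. For all genes, 0 were called, against 4 with normexp, 1 with no filter, 14 with the strict filter, 84 with the replicate block, 5 with the slide block and 62 with all 8 arrays. Leaving out 1 replicate gave 0 to 2 collagens and 0 to 26 genes, the most without null replicate 1. The median of -0.46 was -0.32 with normexp, -0.30 with no filter and -0.27 on the first slide only, and -0.56 to -0.35 with 1 replicate left out. With the block and 1 pair left out, 0 to 3 collagens and 0 to 425 genes were called, 0 without replicate 1 or 2. In null against control, the block changed the call of no named collagen other than Col8a1 and Col25a1.

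In Tbx18VP16 against control, 2 collagens were called, against 8 with the replicate block and 0 to 3 with 1 replicate left out. The number of genes, 1093, was 623 with normexp, 3640 with the replicate block and 58 to 1926 with 1 replicate left out, the fewest without Tbx18VP16 replicate 2 (81 without replicate 1). The share of calls that were higher, 38.3%, was 49.9% with the authors' values. The median of -0.18 was 0.0123 with no filter and -0.295 to 0.0121 with 1 replicate left out. In Tbx18VP16 against null, 2 collagens were called, against 1 after quantile normalisation or with the authors' values, 7 with the replicate block and 0 to 2 with 1 replicate left out, 0 without either Tbx18VP16 replicate. The number of genes, 755, was 397 with normexp, 3287 with the replicate block, 432 with only the 2 groups and 11 to 813 with 1 replicate left out. The share that were higher, 31.9%, was 46.0% after quantile normalisation and 49.6% with the authors' values. The median of 0.20 was 0.34 after quantile normalisation, 0.0646 with normexp, 0.33 with the authors' values and 0.0565 to 0.36 with 1 replicate left out. Replicate numbers did not pair Tbx18VP16 with other pools (correlations -0.254 to 0.059), so its block shares only a number. Where a Tbx18VP16 replicate was left out, the lone remaining array was taken to vary like the other groups.

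Of the named collagens, signs turned for 2. Col7a1 was 0.0993 on the first slide, and -0.505 to 0.0993 in the blocked fit with 1 pair left out. With 1 replicate left out it was -0.525 to 0.173 in Tbx18VP16 against control and -0.0597 to 0.677 in Tbx18VP16 against null. Col18a1 was -0.0781 to 0.351 in the last comparison. Without Tbx18VP16 replicate 1 or 2, the adjusted p of Col8a2 against control was 0.078 or 0.151, and without replicate 2 that of Col25a1 was 0.053. The Col8a1 difference between null and control was 1.92 to 4.04 over 17 alternatives. The cause was not tested. Signal over background limits what could be compared, since 19 of 69 probes were well above background on no array, and 8 genes had no other probe.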

Other observations

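Several collagen genes lie side by side, and their values may be read in pairs (coordinates mm9). Col3a1 and Col5a2 have probes 25.6 kb apart on chromosome 1, and had changes of -0.88 and -0.63 in null and of -0.36 and 0.36 in Tbx18VP16 against control. Col4a1 and Col4a2 have probes 250 kb apart on chromosome 8, and had 0.35 and 0.39 in null and -0.57 and -0.37 in Tbx18VP16. Col6a2 and Col6a1 have probes 113 kb apart on chromosome 10, and had -0.49 and -0.78 in null and -1.04 and -0.69 in Tbx18VP16. Col9a1 and Col19a1 have probes 27.4 kb apart on chromosome 1, and only Col9a1 was well above background, on all 8 arrays. Of these 7 tested genes limma called 0 in either comparison. Other tested neighbours, also not called, parted in sign in 1 comparison or both. On chromosome X, Col4a6 and Col4a5 had 0.52 and 0.32 in null and -0.18 and 0.36 in Tbx18VP16. On chromosome 10, Col6a1 and Col18a1 had -0.78 and 0.96 in null and -0.69 and 1.15 in Tbx18VP16. On chromosome 2, Col9a3 and Col20a1 had -0.73 and 0.34 in null, and both were lower in Tbx18VP16. Both comparisons share the control pools.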
